A study of Mus musculus with 13 samples.

Results

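The regulated exocytosis genes were the 62 protein-coding genes, of 15377 with at least 1 peak within 100 kb of their annotated start, whose names begin with Syt, Stx, Vamp, Snap, Rims or Cplx and a digit, or with Stxbp, Rab3, Rab27, Unc13 or Cadps. Names from Rab30 to Rab39 and those of the Rab3 GTPase-activating proteins and Rab3il1 were left out. They were chosen by name and by having a peak in at least 1 deposited table, whatever its treatment or height, and the set was proposed with earlier results of these data known. They comprised 14 synaptotagmins, 13 syntaxins, 6 Rab genes, 5 SNAP genes, 5 VAMPs, 5 Munc18 and other syntaxin-binding genes, 4 RIMs, 3 complexins, 3 Munc13 genes, 2 CAPS genes and 2 tomosyns. The name rule also took in Snap91, which encodes the clathrin assembly protein AP180 and no SNARE, and Rab3ip, which encodes an exchange factor for Rab8. Of 73 RefSeq protein-coding genes whose names match, 11 had no peak in any deposited table under that name, and these were Cplx3, Rab3d, Stx11, Stx6, Syt11, Syt6, Syt8, Unc13c, Vamp5, Vamp7 and Vamp9.

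Hormone-secreting cells release stored granules when calcium enters. A vesicle SNARE (a VAMP) zips together with membrane SNAREs (a syntaxin and a SNAP-25 relative), Munc18 proteins (Stxbp genes) chaperone the syntaxin, and Munc13 and CAPS proteins prime the granule. Synaptotagmins sense the calcium, complexins hold and then help the assembled complex, and Rab3 and Rab27 with their RIM effectors tether granules at the membrane. Gonadotropes are the pituitary cells that make luteinizing and follicle-stimulating hormone.

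The data were chromatin immunoprecipitation sequencing (ChIP-seq) peak lists from LβT2 cells, a mouse gonadotrope line. Every sample carried a lentivirally delivered FLAG-tagged mouse FOXL2 (a forkhead transcription factor) that doxycycline switches on, in a cassette that also gives constitutive GFP, so that there was no group without the transgene or without doxycycline. After 24 h of recovery, all cells received doxycycline for 48 h and were equilibrated for 2 h in medium with 2% serum, and for the final 1 h were given activin A at 1 nM or its vehicle. Activin A signals through receptor kinases that phosphorylate SMAD2 and SMAD3. Antibodies against SMAD2/3, the FLAG tag (called FOXL2 below) and H3K27ac, an acetylation of histone H3 found at active promoters and enhancers, were used for 2 samples of either treatment, and the material of 3 plates was combined in each sample. Whether these came from separate cultures is not said, so the spread between libraries may be partly technical. A Protein-A control sample was not analysed here, so no background from it stands beside the values.

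The lists held 144 to 605 SMAD2/3 peaks with vehicle and 5970 to 7784 with activin, 83834 to 97701 FOXL2 peaks, and 38995 to 41763 H3K27ac peaks. The labels state 20000000 reads of 50 bp per library, and the reads behind a single peak are not given. As a check of the cell type, H3K27ac peaks assigned to a marker gene within 1 kb of its start were counted. One was present in all 4 libraries for 6 of 10 gonadotrope markers (Cga, Lhb, Gnrhr, Nr5a1, Egr1 and Gata2) and for 0 of 12 markers of other cells. The gonadotrope markers Fshb, Pitx1 and Foxl2 had none in any library, and 2 of the other markers, Neurod1 and Pecam1, had one in some.

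Promoter sequences are shown for the 4 members where a SMAD2/3 peak, or a FOXL2 peak in more than 1 library, lay on a RefSeq promoter window of 300 bases. Windows were found for 46 members (55 windows). Capitals mark TAAACA, a forkhead core, and CAGAC, a SMAD-binding element, each read on either strand (GTCTG is CAGAC on the other strand). The windows are on GRCm38.p6: Stx18 at chr5:38038980-38039279 (+ strand), Stx5a at chr19:8741553-8741852 (+), Vamp1 at chr6:125215331-125215630 (+) and Vamp8 at chr6:72390618-72390917 (- strand).
Stx18: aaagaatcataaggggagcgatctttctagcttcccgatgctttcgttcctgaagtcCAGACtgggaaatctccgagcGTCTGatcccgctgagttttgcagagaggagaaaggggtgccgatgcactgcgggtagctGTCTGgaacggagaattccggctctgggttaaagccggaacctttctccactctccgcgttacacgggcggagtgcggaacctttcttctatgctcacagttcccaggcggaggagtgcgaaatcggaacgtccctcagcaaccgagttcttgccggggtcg
Stx5a: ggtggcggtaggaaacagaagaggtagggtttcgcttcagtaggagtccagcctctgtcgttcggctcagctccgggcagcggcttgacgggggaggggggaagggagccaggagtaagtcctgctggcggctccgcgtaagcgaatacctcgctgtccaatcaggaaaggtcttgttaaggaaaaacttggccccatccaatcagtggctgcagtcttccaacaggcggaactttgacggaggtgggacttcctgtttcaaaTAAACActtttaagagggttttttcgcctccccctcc
Vamp1: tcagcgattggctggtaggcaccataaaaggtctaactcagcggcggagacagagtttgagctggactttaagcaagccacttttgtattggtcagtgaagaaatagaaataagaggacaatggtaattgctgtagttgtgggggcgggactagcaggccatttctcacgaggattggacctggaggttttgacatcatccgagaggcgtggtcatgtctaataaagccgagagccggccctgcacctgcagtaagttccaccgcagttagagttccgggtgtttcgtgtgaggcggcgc
Vamp8: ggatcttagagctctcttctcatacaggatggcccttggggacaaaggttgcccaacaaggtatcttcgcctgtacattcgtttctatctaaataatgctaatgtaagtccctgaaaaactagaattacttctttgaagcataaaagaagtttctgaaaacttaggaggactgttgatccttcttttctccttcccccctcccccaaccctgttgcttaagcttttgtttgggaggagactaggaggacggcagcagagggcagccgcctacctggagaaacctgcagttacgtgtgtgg

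The Stx18 window, with 3 CAGAC matches and no TAAACA, was the single member window with a SMAD2/3 peak (1.82% of member windows, against 0.819% of windows of all protein-coding genes), and that peak was in activin library 2 only, with a fold enrichment of 2.98. The Stx5a window, with 1 TAAACA, carried FOXL2 in all 4 libraries, at folds of 2.65 and 4.47 with vehicle against 4.03 and 3.53 with activin. The treatments overlapped there, and it was the single such member window (1.82%, against 2.62% of all). The Vamp1 and Vamp8 windows, which hold neither motif, carried FOXL2 in the second vehicle and the second activin library and not in the first ones, at folds of 2.94 and 3.54 at Vamp1 and 3.53 and 2.63 at Vamp8. The deposited table gives Vamp1 another start, 15.8 kb from that peak. TAAACA occurred in 9.09% of member windows and 9.89% of all, and CAGAC in 41.8% and 47.8%. A match describes the letters and is not a measured site. H3K27ac covered 34.5% of member windows in all 4 libraries, against 38.4% of all.

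SMAD2/3 peaks at the exocytosis genes numbered 2 and 1 with vehicle against 29 and 19 with activin. The groups did not overlap, and the difference of the mean log2 counts was 4.05 (pooled SD 0.586, n = 2 per group). The same difference over all protein-coding genes was 4.60. FOXL2 peaks numbered 232 and 226 with vehicle against 251 and 254 with activin, a log2 difference of 0.14 (pooled SD 0.021, n = 2) beside 0.13 over all protein-coding genes. H3K27ac peaks numbered 120 and 116 with vehicle against 135 and 139 with activin, a log2 difference of 0.22 (pooled SD 0.032, n = 2) beside 0.01 over all protein-coding genes. The H3K27ac difference was near 0 among stronger peaks. With a −log10 q of at least 5, where q is the authors' adjusted p of a peak, it was 0.00095 (exact two-sided permutation p = 1). The length covered by H3K27ac peaks was 175928 and 171744 bp with vehicle and 199483 and 179570 bp with activin. Over all protein-coding genes it was 28498680 and 27723637 bp with vehicle and 29684458 and 25267739 bp with activin, and there the treatments overlapped. A two-sided exact permutation of the treatment labels (6 ways) gave p = 0.33 for each target, the smallest value this design allows, so no count could reach a threshold of 0.05.

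**Figure D1:**
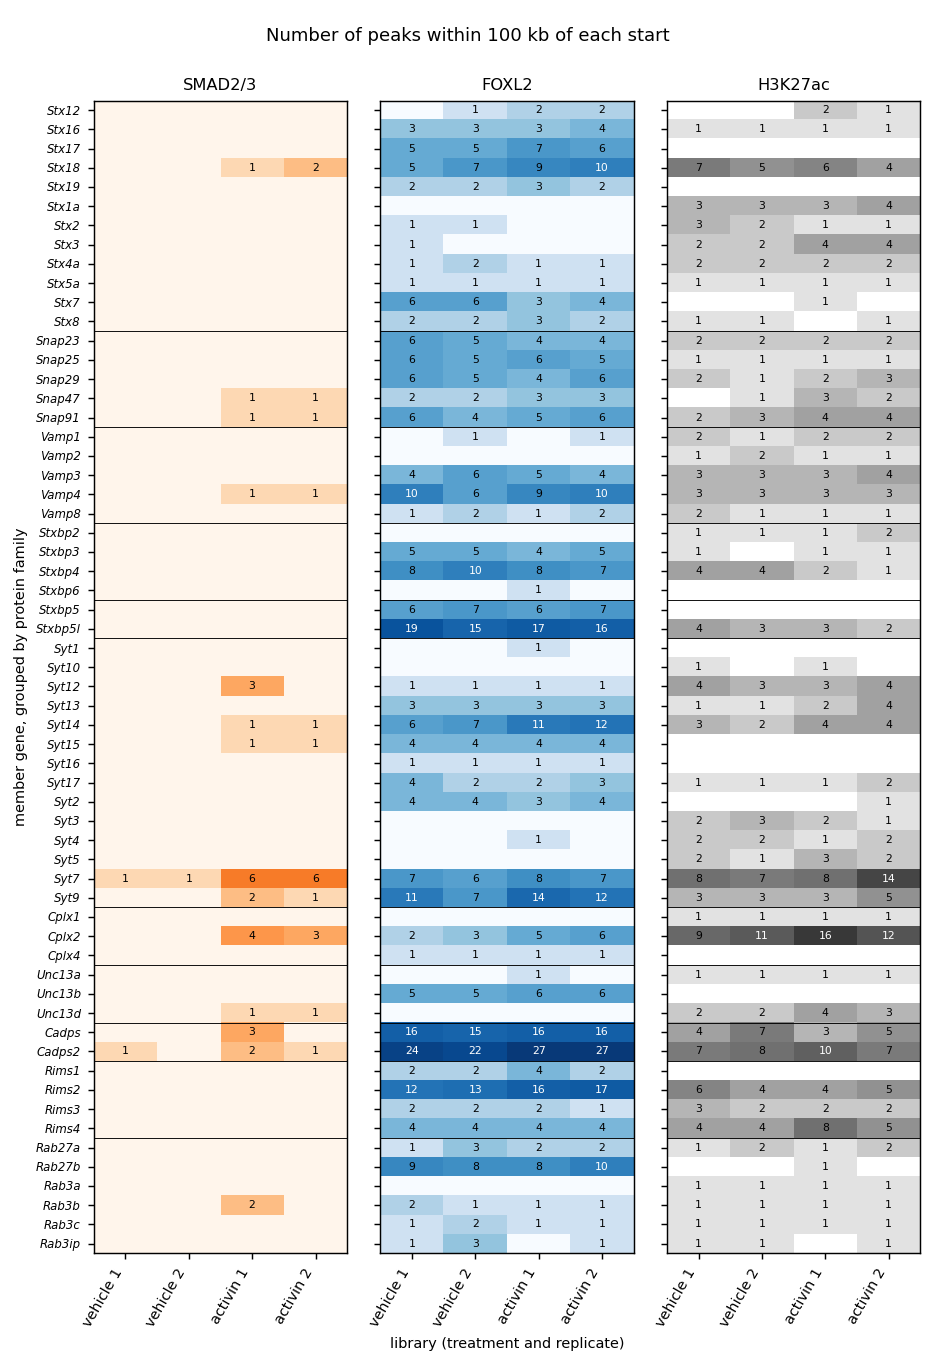
Number of deposited peaks within 100 kb of the start of 60 of the 62 exocytosis genes (rows, grouped by protein family) in the 4 libraries (columns) of SMAD2/3, FOXL2 and H3K27ac; empty cells are 0 and darker cells hold more peaks. SMAD2/3 peaks with vehicle occur at Syt7 and Cadps2 only, while FOXL2 peaks in all 4 libraries cover most rows.

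H3K27ac marked the starts of most of the core release genes under both treatments. An H3K27ac peak assigned to the gene lay within 1 kb of the start in all 4 libraries at 33 of the 62 genes (53.2%), against 39.3% of all protein-coding genes. It was there in 1 to 3 libraries at 9, and in none at 20. Of the 13 core genes reported by name, 10 had such a peak in all 4 libraries. Core genes not reported by name are outside this count. With a −log10 q of at least 5, 24 of the 62 genes were left, and the share of all genes at that cut was not computed. By RefSeq windows the members were not above all genes, with H3K27ac in all 4 libraries on 34.5% of windows against 38.4%. That share is of 55 windows at 46 of the 62 members, so it does not cover the same genes as the 53.2%. Snap25, Vamp2 and Syt7, for example, had an assigned peak in all 4 libraries and no window. The annotation gives each gene 1 start, and only 26 member starts lay within 100 bp of the RefSeq gene end. A peak at another start, or one assigned to another gene, is therefore not counted.

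Among the plasma membrane SNAREs, Stx1a (syntaxin 1A, the main partner of SNAP-25) had promoter H3K27ac folds of 5.27 and 4.43 with vehicle against 5.06 and 5.17 with activin. Snap25 had folds of 4.13 and 4.07 with vehicle against 3.55 and 3.61 with activin. The granule SNARE Vamp2 had 5.72 and 4.44 with vehicle against 6.42 and 5.34 with activin. The treatments overlapped at Stx1a and Vamp2 and did not at Snap25, where vehicle was higher. A fold enrichment is the authors' ratio of a peak to a background, within 1 library's list, and lists were not scaled to each other, so these values describe peaks and do not measure a change in acetylation.

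Of the factors that act on the SNAREs, Unc13a (Munc13-1) had promoter folds of 4.95 and 4.85 with vehicle against 5.44 and 4.84 with activin. Cadps (CAPS1, which primes dense-core granules) had 6.74 and 5.58 with vehicle against 6.38 and 6.21 with activin. The calcium sensor Syt7 had 6.98 and 6.56 with vehicle against 6.65 and 5.87 with activin. Values of the treatments overlapped at all 3 genes. The complexins had opposite orders: Cplx1 had 4.92 and 4.23 with vehicle against 4.0 and 3.88 with activin, while Cplx2 had 6.40 and 5.81 with vehicle against 7.71 and 7.69 with activin. Neither complexin's treatments overlapped. Rab3a, the most abundant Rab3 of neurons, had 2.85 and 3.72 with vehicle against 3.49 and 3.24 with activin. Rab27a, which recruits granules to the membrane, had 8.50 and 6.42 with vehicle against 8.23 and 6.39 with activin. Both Rab genes overlapped between treatments.

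**Figure D2:**
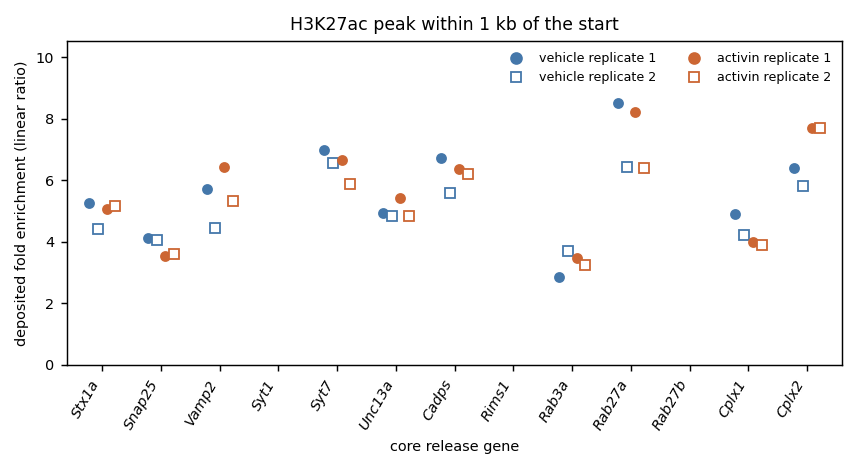
Deposited fold enrichment (linear axis from 0) of the H3K27ac peak within 1 kb of the start of 13 core release genes in the 2 vehicle and 2 activin libraries. No symbol means no such peak assigned to the gene. Rab27a, Cplx2 and Syt7 sit highest, and Syt1, Rims1 and Rab27b have no symbol.

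Of the core genes reported by name, 3 had no H3K27ac peak assigned to them within 1 kb of the start in any library. These were Syt1 (the fast calcium sensor of synapses), Rims1 and Rab27b. Among all 20 members without such a peak, the first in alphabetical order were Cplx4, Rab27b, Rab3c, Rims1, Rims3, Snap47, Stx12 and Stx17. A peak at another start, or one assigned to another gene, can still cover such a promoter. The RefSeq windows of Snap47, Stx12 and Syt9 carried H3K27ac in all 4 libraries. Those of Rims3 and Syt2 carried it in 1 vehicle library each. By family, 7 of 14 synaptotagmins, Syt9 among them, had no assigned peak. An assigned peak was present in all 4 libraries at 4 of 5 SNAP genes (Snap91 among them), 4 of 5 VAMPs and both CAPS genes. The other families had fewer, with 2 of 3 Munc13 genes, 2 of 3 complexins, 3 of 6 Rab genes, 2 of 4 RIMs and 1 of 2 tomosyns. Lowest were 6 of 13 syntaxins, 2 of 5 Munc18 and other syntaxin-binding genes, and 5 of 14 synaptotagmins. The share of all protein-coding genes was 39.3%.

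SMAD2/3 lay at the exocytosis genes in 31 regions, a region being overlapping peaks of the 4 libraries of a target joined where they share 1 bp. Of these, 15 (48.4%, 95% Wilson interval 32.0 to 65.2) had a peak in both activin libraries and in neither vehicle library, against 54.1% over all protein-coding genes. Vehicle-only regions numbered 0 (background 0.051%), 1 region had a peak in all 4 libraries, and 15 fell between. Without activin library 2 the activin-only count was 27. The intervals cover counting error only, and regions of 1 gene share their locus. As genes, 10 of 62 (16.1%) had an activin-only SMAD2/3 region, against 10.4% of all, and 11 (17.7%) had a region in both activin libraries, against 11.2%. No test was made of these shares. The members are longer than other genes, with a median RefSeq length of 46.9 kb against 22.7 kb, and the part of length in these shares was not tested.

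**Figure D3:**
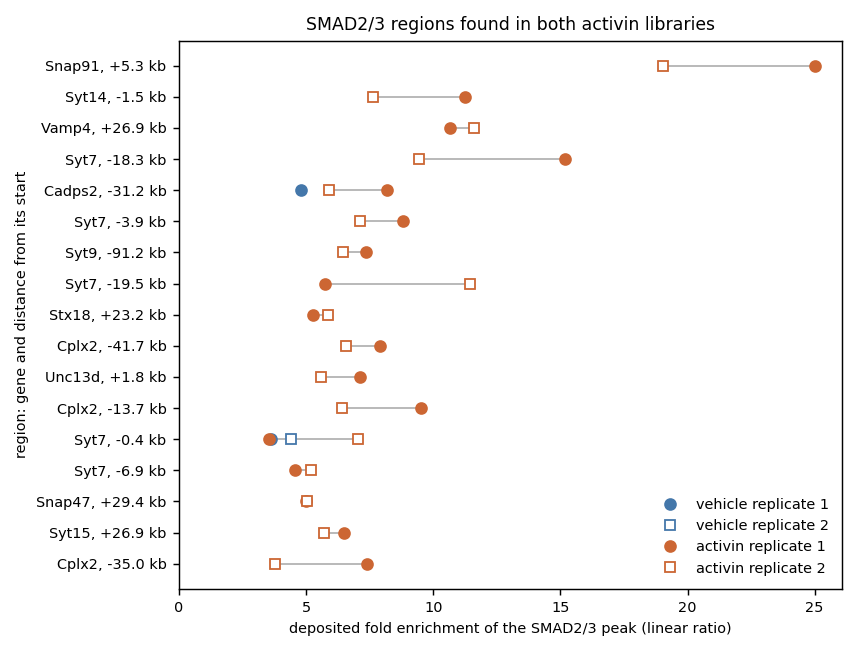
Deposited fold enrichment (linear axis from 0) of SMAD2/3 peaks at the 17 regions found in both activin libraries, labelled by gene and distance from its start (negative is upstream), ordered by percentile rank; filled and open symbols are replicates 1 and 2. Snap91 stands furthest right at 25.0 and 19.0, and vehicle symbols appear at Cadps2 and at the Syt7 promoter.

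At SNARE and SNAP genes, the highest SMAD2/3 peaks lay in Snap91, in its intron 2, 5.29 kb inside the gene (chr9:86874786-86875437, GRCm38). The folds were 25.0 and 19.0 with activin, at percentile ranks of 98.9 and 96.2 in lists sorted by −log10 q, and no peak was called with vehicle. FOXL2 was there in all 4 libraries, at folds of 21.7 and 16.0 with vehicle against 38.4 and 31.7 with activin. H3K27ac had no peak in vehicle library 1 and had folds of 2.92 in vehicle library 2 and of 4.56 and 3.91 with activin.

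Vamp4, a SNARE of the trans-Golgi network and endosomes, had a SMAD2/3 region in its last exon, 26.9 kb from the start (chr1:162597513-162597911), with activin folds of 10.7 and 11.6 and no vehicle peak. FOXL2 folds there were 28.9 and 22.4 with vehicle against 31.7 and 29.3 with activin. H3K27ac folds were 3.18 and 3.51 with vehicle against 5.38 and 4.87 with activin, with no overlap between treatments.

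Stx18, a syntaxin of the endoplasmic reticulum that serves retrograde traffic from the Golgi, had a SMAD2/3 region 23.2 kb inside the gene, in intron 1 (chr5:38062354-38062696), at 5.28 and 5.85 with activin and no peak with vehicle. FOXL2 was found there in the activin libraries only, at 9.54 and 8.12. H3K27ac was found in all 4, at 2.70 and 3.25 with vehicle against 4.85 and 4.87 with activin. A further 3 activin-only FOXL2 regions lay within the same intron, at 22.5, 25.8 and 27 kb from the start, with activin folds of 5.36 and 3.66, of 6.14 and 7.09, and of 8.87 and 7.46. Snap47, a widely expressed SNAP-25 relative, had SMAD2/3 at 4.97 and 5.04 in its intron 4 (chr11:59420465-59420726), 29.4 kb from the start. FOXL2 folds there were 16.2 and 16.2 with vehicle against 24.2 and 20.5 with activin.

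Syt7, a high-affinity calcium sensor of dense-core granules, carried 5 SMAD2/3 regions found in both activin libraries, a number reached by 20 of all protein-coding genes (0.13%). They lay 19.5, 18.3, 6.89 and 3.91 kb upstream of the start and at the promoter, 0.379 kb upstream. The region 18.3 kb upstream (chr19:10370689-10370967) had SMAD2/3 folds of 15.2 and 9.45 with activin and no vehicle peak. The region 19.5 kb upstream (chr19:10369429-10369712) had 5.74 and 11.5, also with no vehicle peak. A broad H3K27ac region spanned both, with folds of 3.81 and 3.18 with vehicle against 6.58 and 6.32 with activin, and percentile ranks of 53.1 and 43.5 against 90.8 and 88.9. FOXL2 folds were 16.4 and 16.0 with vehicle against 33.6 and 30.6 with activin at the first of these regions, and 12.8 and 12.1 with vehicle against 18.1 and 24.5 with activin at the second. The treatments did not overlap in any of these 3 FOXL2 and H3K27ac regions, and activin was higher.

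Nearer the Syt7 start the picture differed. The regions 3.91 kb and 6.89 kb upstream had SMAD2/3 folds with activin of 8.81 and 7.10, and of 4.57 and 5.20, with no vehicle peak. The promoter region (chr19:10388531-10388799) had SMAD2/3 peaks in all 4 libraries, at 3.63 and 4.39 with vehicle against 3.55 and 7.05 with activin, which overlap. The H3K27ac region that spans these 3 sites ranked at 95.4 and 95.6 with vehicle against 94.6 and 90.5 with activin, so vehicle was slightly higher. FOXL2 at the site 3.91 kb upstream was at 13.9 and 18.6 with vehicle against 12.7 and 12.9 with activin. The promoter SMAD2/3 region overlapped a FOXL2 peak only in vehicle library 2, at 3.83. A separate FOXL2 peak within 1 kb of the start was in vehicle library 1, at 3.14, and neither activin library had one there.

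Of the other synaptotagmins, Syt14, which lacks the calcium-binding residues, had SMAD2/3 1.45 kb upstream of its start (chr1:193036858-193037390), at 11.3 and 7.64 with activin and no peak with vehicle. FOXL2 there was absent from vehicle library 1, at 3.35 in vehicle library 2, and at 7.76 and 9.13 with activin. H3K27ac had folds of 4.38 and 3.47 with vehicle against 7.14 and 8.45 with activin. Both targets stood higher in either activin library than in either vehicle library. Syt9 had SMAD2/3 91.2 kb upstream of the start that the annotation uses, but in intron 1 of Syt9 itself (chr7:107412423-107413087), at 7.35 and 6.46. FOXL2 folds there overlapped, at 12.4 and 10.9 with vehicle against 11.7 and 12.3 with activin, while H3K27ac had 5.54 and 5.0 with vehicle against 7.01 and 6.41 with activin. Syt15 had SMAD2/3 26.9 kb from its start, past the end of its RefSeq body and in an intron of another gene (chr14:34246363-34246707), at 6.48 and 5.71 with activin. FOXL2 there was at 9.96 and 9.17 with vehicle against 32.2 and 19.3 with activin, and no H3K27ac peak overlapped.

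Cplx2, which clamps and promotes SNARE fusion, had SMAD2/3 at 3 sites upstream, at 41.7 kb (chr13:54329423-54329940), 35.0 kb (chr13:54336142-54336465) and 13.7 kb (chr13:54357499-54357793). All 3 lie upstream of the start that the annotation uses and inside the longer RefSeq gene. Their activin folds were 7.89 and 6.58, 7.41 and 3.76, and 9.53 and 6.39, with no vehicle peak at any. H3K27ac stood higher with activin at each. Percentile ranks were 79.4 and 60.1 against 90.0 and 94.2 at the first, 90.6 and 91.5 against 98.2 and 98.3 at the second, and 80.9 and 82.9 against 95 and 94.1 at the third. FOXL2 was strong at the third site only, at 11 and 14.5 with vehicle against 17.2 and 17.0 with activin. Beside the second site, 35.4 kb upstream, a separate FOXL2 region, picked out after its values were seen, had 4.83 and 5.23 with vehicle against 14.7 and 16.8 with activin.

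**Figure D4:**
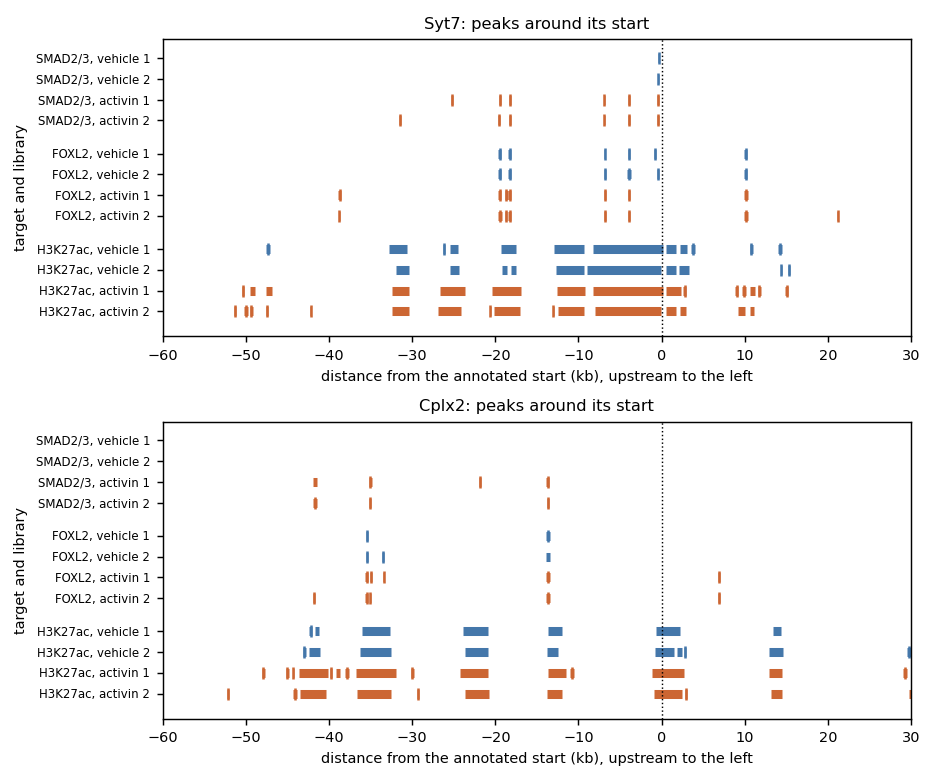
Peaks of each library (rows) around the starts of Syt7 and Cplx2, by distance from the annotated start in kb, with vehicle in blue and activin in orange; bars span peaks and ticks mark those under 0.5 kb. SMAD2/3 marks appear in the activin rows at the upstream sites, and only the Syt7 promoter has marks in the vehicle rows.

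Among priming factors, Unc13d (Munc13-4, a Rab27 effector of granule secretion) had SMAD2/3 1.75 kb from its start (chr11:116075587-116076090), at 7.10 and 5.58 with activin and no vehicle peak. No FOXL2 region overlapped it. H3K27ac there was at 6.59 and 6.07 with vehicle against 8.76 and 8.21 with activin, with no overlap. Cadps2 (CAPS2, a dense-core granule priming factor) had SMAD2/3 31.2 kb upstream (chr6:23870152-23870536), at 4.80 in vehicle library 1, in no peak of vehicle library 2, and at 8.17 and 5.88 with activin. FOXL2 was at 23.7 and 16.1 with vehicle against 15.6 and 12.7 with activin. The pair of H3K27ac regions there also ranked higher with vehicle, at percentile ranks of 90 and 88.5 against 87.6 and 71, and of 81.6 and 67.8 against 40.4 and 53.9. No Rab, RIM, Munc18 or tomosyn gene had a SMAD2/3 region of both activin libraries assigned to it.

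Of the 17 SMAD2/3 regions of both activin libraries, 9 lay inside the RefSeq body of their gene. Of the 17, 14 (82.4%, with a Wilson interval of 59.0 to 93.8) shared bases with FOXL2 peaks of both activin samples, against 79.7% over all protein-coding genes, and 16 (94.1%, 73.0 to 99.0) overlapped H3K27ac, against 78.5%. With FOXL2 and H3K27ac taken from the vehicle libraries, 11 (64.7%) and 13 (76.5%) did, against 70.0% and 62.9% over all protein-coding genes. Most sites, of members and of all genes, thus carried each of these peaks with vehicle as well. The intervals given for the activin samples contain the background shares, and the set is small. The median distance between a member's SMAD2/3 summit and its closest FOXL2 summit was 88 bp for activin library 1 and 51 bp for library 2, beside 45 and 43 bp over all protein-coding genes. Within 100 bp lay 17 of 29 (58.6%) and 12 of 19 (63.2%) member summits, against 66.6% and 68.6% over all protein-coding genes.

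FOXL2 at the exocytosis genes lay in 327 regions, 234 of them in introns and 54 between genes, and 164 had a peak in all 4 libraries, at a median of 15.9 kb from the start. At least 1 such region was found at 42 of the 62 genes (67.7%), against 55.6% of all protein-coding genes. The members are longer than other genes, and the part of length in these shares was not tested. The 327 regions hold only peaks assigned to a member. A further 275 to 335 FOXL2 peaks per library lay inside member bodies but were assigned to other genes. The counts by gene that follow leave those peaks out and are of assigned regions found in all 4 libraries. Cadps2 held most, with 17, followed by Stxbp5l (tomosyn-2, which competes with VAMPs for the SNARE complex) with 13, Cadps with 12, Rims2 with 9, and Rab27b and Syt9 with 7 each. Snap25 had 4, among them one 7.43 kb inside the gene (chr2:136720406-136721485) with folds of 28.9 and 24.5 with vehicle against 31.4 and 28.6 with activin. A weaker one 0.251 kb upstream of the Snap25 start had 7.34 and 6.04 with vehicle against 4.52 and 4.48 with activin. Rims1 had 2 and Rab27a 1, and Stx1a, Vamp2, Rab3a and Cplx1 had no FOXL2 peak assigned to them in any library.

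Activin-only FOXL2 regions numbered 29 of 327 (8.87%, 6.25 to 12.4), against 8.32% over all protein-coding genes, and vehicle-only regions 9 (2.75%, 1.45 to 5.15), against 3.36%. Both shares are near the background. With 1 library left out at a time, the counts ranged from 39 to 46 and from 12 to 30. The activin-only regions of highest rank were the Stx18 sites at 23.2 and 27 kb, Rims2 53.6 kb inside the gene with 8.75 and 9.13, Syt7 18.7 kb upstream with 8.05 and 8.68, and Stxbp5l 42.6 kb inside with 6.14 and 5.14. The vehicle-only regions of highest rank lay at Stx2 (6.04 and 6.65), Snap29 (5.93 and 5.15), Stxbp4 (4.19 and 4.05), Stxbp5l (4.62 and 4.34) and Rims2 (4.16 and 5.41). Stx2 is a plasma membrane syntaxin, Snap29 serves autophagosome and other intracellular fusion, and RIM2 (Rims2) links Rab3 to the release site.

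H3K27ac lay in 165 regions, 87 of them with a peak in all 4 libraries. Activin-only regions numbered 9 (5.45%, 2.90 to 10.0), against 5.33% over all protein-coding genes, and vehicle-only regions 6 (3.64%, 1.68 to 7.71), against 5.35%. With a −log10 q of at least 5, 2 and 2 were left, and with 1 library left out at a time the counts ranged from 12 to 30 and from 8 to 13. The activin-only regions of highest rank lay in Stx3 (3.90 and 3.45), Snap47 (3.29 and 3.46, 29.8 kb from the start and beside its SMAD2/3 site), Cplx2 (3.88 and 3.23), Snap91 (3.11 and 3.34, 5.84 kb from the start and beside its SMAD2/3 site) and Syt7 (3.40 and 2.62). Among the vehicle-only ones of highest rank were Cadps (3.37 and 2.99), Stxbp4 (3.20 and 3.11), Syt4 (2.66 and 2.81) and Stx2 (3.18 and 2.70). Syt4 is a synaptotagmin of secretory granules that does not act as a fast calcium sensor.

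The order of peaks within their lists was compared at regions with a peak in all 4 libraries, counting a region as higher with a treatment when both its percentile ranks exceeded both of the other treatment. Lists differ in length, so such an order is no measured change in binding or acetylation, and it is read beside all genes. FOXL2 regions of the exocytosis genes ranked higher with activin in 48 of 164 (29.3%), against 28.9% over all protein-coding genes, and higher with vehicle in 45 (27.4%), against 28.5%. H3K27ac regions ranked higher with activin in 33 of 87 (37.9%, 28.5 to 48.4), against 25.9%, and with vehicle in 24 (27.6%, 19.3 to 37.8), against 28.7%.

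At SMAD2/3 sites the order leaned to activin. Of 13 member H3K27ac regions that overlapped a SMAD2/3 region of both activin libraries, 10 (76.9%) ranked higher with activin and 3 with vehicle, while of the 74 member regions without one, 23 (31.1%) and 21 did. Over all protein-coding genes the activin shares were 67.4% with a SMAD2/3 region and 21.7% without. FOXL2 regions ranked higher with activin in 7 of 11 with a SMAD2/3 region and in 41 of 153 (26.8%) without, beside 52.1% and 27.5% over all protein-coding genes. Members and all genes leaned the same way, with no test of a difference between them. One of the 13 regions, at Rab3b, met a SMAD2/3 region assigned to another start. The 3 H3K27ac regions that ranked higher with vehicle were the Syt7 promoter region and both regions at the Cadps2 site.

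**Figure D5:**
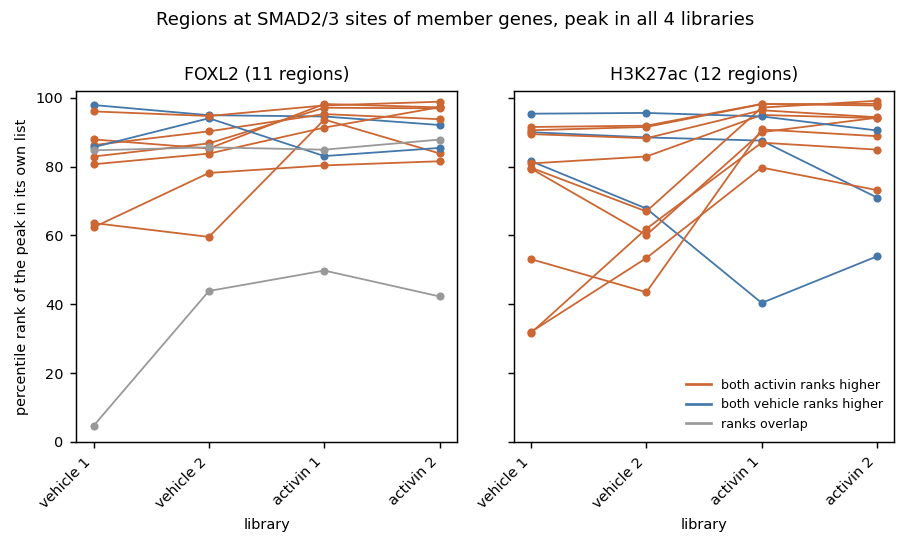
Percentile rank of each FOXL2 (left) and H3K27ac (right) region with a peak in all 4 libraries that overlaps one of the 17 SMAD2/3 regions, by library; lines join the libraries of 1 region and have no time order. Most lines are orange, the colour of regions where both activin ranks exceed both vehicle ranks.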

How the data were processed

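ChIP-seq of SMAD2/3, FLAG-FOXL2 and H3K27ac in LβT2 cells was analysed from 12 libraries, grouped by the labels' treatment, with 2 libraries per target and treatment. The authors deposited 1 peak list per library (narrow for SMAD2/3 and FOXL2, broad for H3K27ac) and an annotation table per list. Bowtie2, MACS2, HOMER and the builds GRCm38 and mm10 are named in the submitters' processing notes, with no role. The deposited values are a fold enrichment (a ratio), a −log10 of p and of q, a peak score that equals 10 times −log10 q cut to a whole number, and the distance of the peak's centre to the nearest start. Thresholds, annotation version and use of the control are not given in the sources used here. No counts of reads were used, so a library's own peaks are the unit, and weak peaks of a shallower library can fall below the authors' threshold.

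Peaks within 100 kb of a start were kept, peaks of the 4 libraries of a target were joined where they shared 1 bp, and regions were classed by the libraries holding a peak. Counts of peaks per library were compared on the log2 scale with an exact two-sided permutation test. Shares carry 95% Wilson intervals, which cover counting error only. Python 3.11.15, pandas 2.3.3, numpy 2.4.6, scipy 1.17.1 and matplotlib 3.10.9 were used, and the joining, classes and overlaps were tested on simulated data. Members, gene lists and tests were chosen with earlier results of these data known. Named were 13 core genes, members with SMAD2/3 in both activin libraries or in a vehicle library, and the 5 highest-ranked activin-only and vehicle-only FOXL2 and H3K27ac regions. Also named were the 5 members with most FOXL2 regions (6 with a tie), and the first 8 members without an assigned promoter H3K27ac peak. Some genes that the rules take in are not reported here by name. The alternatives were a −log10 q of at least 5, limits of 50 kb and, for promoters, 2 kb, overlap of 50% of the shorter peak, ranks by fold, a replicate block and each library left out. The labels name no batch. Promoter windows and gene lengths came from RefSeq on GRCm38.p6, with all 62 members matched for length.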

Additional observations from a re-analysis of the deposited data

How the results depend on the processing

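Of 124 alternatives tried over 17 results, 105 were counted as keeping the result and 19 as moving it. For the log2 differences of peak counts, keeping meant only the same sign. The kept ones thus include the H3K27ac difference, which fell from 0.22 to 0.00095 with a −log10 q of at least 5. All other kept results stayed within 1.5 times their value. Only the log2 differences have a direction that could reverse, and all kept their sign. Each move had fewer libraries to satisfy, fewer peaks or more ground counted. Leaving out 1 library gave 15 to 27 activin-only SMAD2/3 regions (27 without activin 2), 39 to 46 activin-only FOXL2 regions (44 without vehicle 1 or activin 1, 46 without activin 2), and 12 to 30 vehicle-only FOXL2 regions (30 and 28 without vehicle 1 and 2, 16 without activin 2). It gave 12 to 30 activin-only H3K27ac regions (21 and 30 without activin 1 and 2) and 8 to 13 vehicle-only ones (10 and 13 without vehicle 1 and 2, 10 without activin 2). FOXL2 regions ranked higher with activin numbered 62 to 79 (79 and 74 without vehicle 1 and 2) and with vehicle 60 to 70 (70 without vehicle 1). With a −log10 q of at least 5, activin-only and vehicle-only H3K27ac regions numbered 2 and 2, and 14 H3K27ac regions ranked higher with vehicle. With regions inside the gene body also counted, an alternative chosen after seeing the data, 18 genes had an activin-only SMAD2/3 region.

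With the replicate number as a block, the log2 differences of SMAD2/3, FOXL2 and H3K27ac peaks stayed at 4.05, 0.14 and 0.22 with an exact p of 0.5 each, the smallest that pairing 2 numbers allows. Paired by number, 65 of 164 FOXL2 regions ranked higher with activin and 57 with vehicle (35.4% and 35.7% over all protein-coding genes), and 40 and 27 of 87 H3K27ac regions (31.6% and 34.9%). Deviations of same-numbered libraries correlated at 0.132 for FOXL2 and -0.0281 for H3K27ac, with SMAD2/3 not computed. With 2 pairs and no label that ties a number to a culture or day, the numbers were not taken to pair the libraries. Reads per peak were not given, so how depth limits the weaker peaks was not tested.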

Other observations

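The exocytosis genes are long, and some SMAD2/3 regions inside them are assigned to the start of another gene. By the deposited annotation of each peak's place, 21 further SMAD2/3 regions found in both activin libraries lay within 11 members, 19 of them activin-only. Of the 21, 18 overlapped FOXL2 and 15 overlapped H3K27ac. Among SMAD2/3 regions assigned to all protein-coding genes, 79.7% and 78.5% did, and no share was computed for regions placed by gene body. The highest was in an intron of Cadps2 (chr6:23731969-23732482), nearest to the start of Rnf148, with SMAD2/3 folds of 3.21 in vehicle library 1, no peak in vehicle library 2, and 16.0 and 10.6 with activin. Syt14 had one (chr1:192946467-192946804) at 15.0 and 16.8 with activin and none with vehicle, and Rab3b had one (chr4:108935194-108935627) at 8.28 and 8.46. Rab27b held 3, Rims2 2 and Unc13a 1. With bodies counted, 18 of 62 members (29.0%) had an activin-only SMAD2/3 region, beside 14.3% of 15469 protein-coding genes counted the same way, and the part of gene length in this was not tested.

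Other genes of the pathway, a list of 50 genes with a peak that includes the NSF fusion ATPase and its SNAP adaptors, the exocyst and active-zone scaffolds, had an activin-only SMAD2/3 region at 5 (10%). These were the active-zone scaffold genes Erc1 and Pclo with 2 regions each, and the synapsin Syn3, the synaptophysin relative Sypl and the SNARE-associated Snapin with 1 each. Promoter H3K27ac in all 4 libraries was found at 20 (40%) and a FOXL2 region in all 4 at 30 (60%). These shares lie near those of all protein-coding genes, which were 10.4%, 39.3% and 55.6%.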
